A study of Drosophila melanogaster with 4 samples.

Results

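The genes described here encode the translation initiation factors of Drosophila melanogaster, taken as every protein-coding gene whose Ensembl symbol starts with eIF. There were 44 such genes among the 13968 protein-coding genes on the 7 nuclear chromosome arms. Their promoters were examined in ChIP-seq peak lists for Distal-less (Dll), a homeodomain transcription factor known for its role in limb and antenna development. The data are 4 biological replicates of a single group: whole embryos of the Dll-GFP strain, collected between 0 and 24 h of development, in which a Dll-eGFP fusion was precipitated with an anti-GFP antibody from chromatin sonicated to 200 to 800 bp. All 4 samples carry the fusion, and no untagged strain and no second condition is among them. The sample descriptions name the anti-GFP antibody, whereas the antibody field of the same labels names Dll, and this conflict was not settled here. The labels do not say which sequences drive the fusion, and a whole embryo mixes cells with and without Dll, so the lists cannot say in which cells a promoter was bound. Reads of a control were not analysed here, and whether signal at these promoters depends on the tag was not tested.

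Translation starts when the small ribosomal subunit, loaded with initiator tRNA, is brought to the capped end of an mRNA and scans to the start codon. eIF2 carries the initiator tRNA with GTP and is recharged by eIF2B, eIF3 is the large scaffold on the small subunit, and the eIF4 factors recognise the cap and unwind the leader. eIF1, eIF1A, eIF5 and eIF5B act in start codon selection and subunit joining, and eIF6 keeps free large subunits apart from small ones. These factors are needed in nearly every cell, while some additional fly copies, such as eIF4E3 and eIF4G2, are known for roles in the male germline.

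A gene was said to have a promoter summit when the highest point of a deposited peak lay within 500 bp of one of its annotated transcription start sites (TSSs). The conservative list is a series-level list made by the authors from the alignments of all 4 replicates and held 5203 nuclear peaks. Each replicate also has its own thresholded list, with 3609, 3610, 2523 and 2884 nuclear peaks in replicates 1 to 4, and its own longer ranked list of candidates. Every thresholded list stops at a scaled IDR score of 830 out of 1000, where IDR is the irreproducible discovery rate and a higher score means a more reproducible peak. Peak lists give no reads, and the depth of the samples is unknown. Strength is given as the rank of a gene's strongest promoter summit by the authors' signal value, in percent from the top of a replicate's own thresholded list, where a low percent is a strong peak.

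The promoters that carry the main patterns are shown first, as up to 200 bases ending just before the TSS, 5' to 3' on the strand of the gene, from the RefSeq release 6 genome, which has the dm6 coordinates of the peaks. Capitals mark letters of 7 words that were searched on both strands: TATCGATA, the element of the factor DREF, CGATAT, the word of the insulator factor BEAF-32, GGTCACAC of M1BP, GAGAGAG of GAGA factor, the E-box CAGCTG, the TATA word TATAAA, and TAATTA, a core that many homeodomain proteins bind in other contexts. In the thresholded lists the eIF2gamma and eIF4E6 promoters hold the strongest summits of their groups and eIF3f1 the next strongest of eIF3, and eIF4H1 and eIF4H2 are a duplicated pair of which only eIF4H1 had a peak. The eIF2gamma stretch is on the minus strand at chr3R:15263459-15263581, that of eIF3f1 on the minus strand at chr3R:4714183-4714382, and that of eIF4E6 on the minus strand at chr3R:29027175-29027265. The eIF4H1 stretch is on the plus strand at chrX:16448465-16448664, and that of eIF4H2 on the plus strand at chr3R:30725887-30726086.
eIF2gamma: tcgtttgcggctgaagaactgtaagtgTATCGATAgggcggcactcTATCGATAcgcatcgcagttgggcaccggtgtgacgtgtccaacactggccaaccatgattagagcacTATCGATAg
eIF3f1: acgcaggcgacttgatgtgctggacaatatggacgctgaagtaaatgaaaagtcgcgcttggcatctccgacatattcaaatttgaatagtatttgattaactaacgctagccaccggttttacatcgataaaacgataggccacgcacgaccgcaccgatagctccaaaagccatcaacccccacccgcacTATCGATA
eIF4E6: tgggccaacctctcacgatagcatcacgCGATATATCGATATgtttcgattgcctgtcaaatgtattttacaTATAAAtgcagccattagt
eIF4H1: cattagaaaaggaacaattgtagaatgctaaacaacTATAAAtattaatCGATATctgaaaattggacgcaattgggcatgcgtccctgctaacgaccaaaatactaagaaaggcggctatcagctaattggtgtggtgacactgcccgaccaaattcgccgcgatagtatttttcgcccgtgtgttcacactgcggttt
eIF4H2: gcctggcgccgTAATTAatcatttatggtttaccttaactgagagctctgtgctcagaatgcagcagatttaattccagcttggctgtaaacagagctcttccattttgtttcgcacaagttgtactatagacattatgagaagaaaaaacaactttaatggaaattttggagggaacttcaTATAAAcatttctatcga
In the eIF2gamma stretch TATCGATA starts 96, 77 and 9 bases before the TSS, that is at -96, -77 and -9, around a conservative summit at -61. In eIF3f1 the word starts at -8 and the summit lies at -10. In eIF4E6 the summit at -55 falls on a run in which TATCGATA, at -58, overlaps CGATAT at -63, -59 and -55. The eIF4H1 summit at -165 lies beside TATAAA at -164 and CGATAT at -151. The eIF4H2 stretch holds TAATTA at -189 and TATAAA at -18, and no summit of the conservative list or of any own list lies within 500 bp of its TSS.

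In the conservative list, 24 of the 44 eIF genes (54.55%) had a promoter summit, against 32.7% of all protein-coding genes. The count was lowest, at 17 eIF genes (38.64%) each, in 3 other series-level lists, of 4009, 4347 and 4318 peaks. These lists held a promoter summit for 26.22%, 28.24% and 27.73% of all genes. The count was also lower, at 21 and 22 eIF genes, in the series-level lists of 4781 and 4640 peaks. It was higher, at 25, in that of 6226 peaks. In the lists of 4781, 4640 and 6226 peaks, 30.52%, 29.77% and 36.83% of all genes had a promoter summit. In the own thresholded lists, 19, 22, 18 and 22 eIF genes had one in replicates 1 to 4, against 26.2%, 27.1%, 20.5% and 22.6% of all genes. As a share this was 46.0% ± 4.69 for the eIF genes and 24.0% ± 3.06 for all other genes (SD, n = 4 replicates). The eIF share was higher in 4 of 4 replicates, by 22.0 ± 4.40 percentage points (SD, n = 4), with differences from 17.1 to 27.5. The exact two-sided sign-flip permutation test over the 4 replicates gave p = 0.13, 2 of 16 sign patterns, which is the smallest value that 4 replicates allow, so it could not pass 0.05. The test speaks of the spread between replicates and not of the choice of genes, and no list matched for expression or promoter type was set beside the eIF genes.

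The same genes recurred across replicates. A total of 18 of the 44 promoters (40.91%) had a summit in all 4 own lists, against 17.6% of all genes. All 18 were also in the conservative list. In the ranked lists, which add weaker candidates, 36, 35, 34 and 34 eIF genes had a summit, against 61.8%, 60.7%, 62.9% and 60.6% of all genes in replicates 1 to 4. That is 79.0% ± 2.18 of eIF genes and 61.5% ± 1.10 of all other genes (SD, n = 4). No candidate was seen in any replicate at 7 eIF genes, and the share of all genes without one was not counted.

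**Figure D1:**
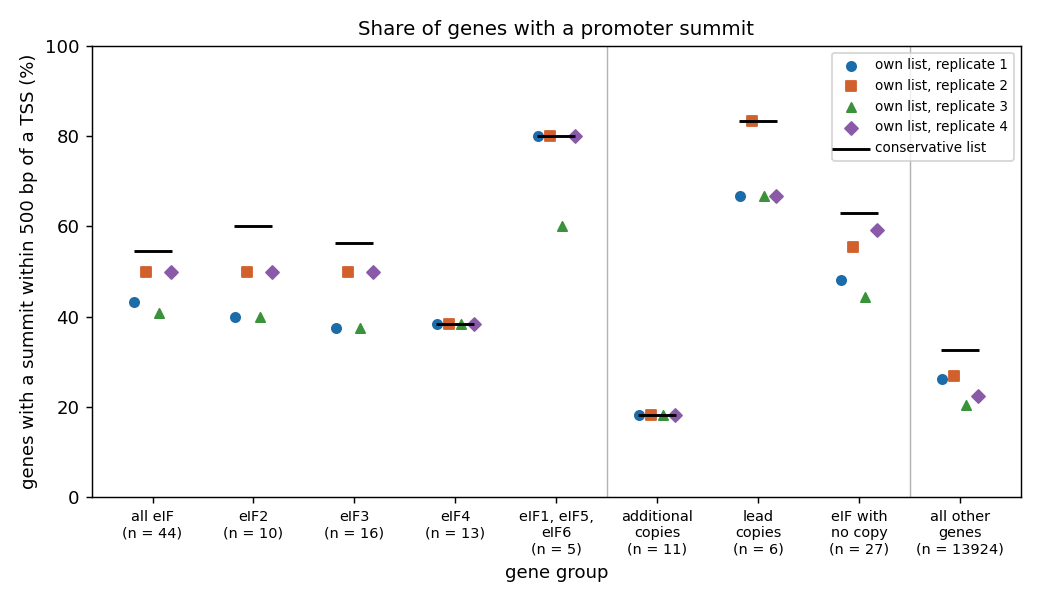
Share of genes with a summit within 500 bp of a TSS, in percent, by gene group. Symbols are the own thresholded lists of replicates 1 to 4 and the black bar is the conservative list. All eIF genes together lie between 40.9% and 50% in the own lists, above the other protein-coding genes at 20.5% to 27.0%, while the additional copies stay at 18.2% in every list.

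The eIF2 group has 10 genes: the 3 subunits of eIF2 itself, the 5 subunits of its exchange factor eIF2B, and eIF2A and eIF2D, which can deliver initiator tRNA by other routes. In the conservative list 6 of the 10 (60.0%) had a summit, against 32.7% of all genes. The own lists held one for 4, 5, 4 and 5, against 20.5% to 27.1% of all genes. All 10 had a candidate in the ranked list of every replicate, where single lists held one for 60.6% to 62.9% of all genes.

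eIF2gamma, the subunit that binds GTP and the initiator tRNA (3R, 15257844 to 15263458), was the strongest of the group. It ranked at 13.6%, 15.1%, 21.4% and 16.1% from the top in replicates 1 to 4, a mean of 16.6% ± 3.42 (SD, n = 4). In each replicate it was stronger than the next gene of the group, eIF2Balpha, a regulatory subunit of the exchange factor (3R, 29934582 to 29935888). eIF2Balpha ranked at 24.7%, 25.2%, 43.4% and 44.7%, a mean of 34.5% ± 11.0.

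eIF2alpha, whose phosphorylation by stress kinases shuts down general translation (X, 16445176 to 16446993), had a summit 7 bp upstream of its TSS. It ranked at 48.7%, 48.8%, 63.9% and 48.2%, a mean of 52.4% ± 7.67, with replicate 3 weaker than the other replicates. eIF2A (3L, 21824740 to 21827856) ranked at 40.7%, 32.1%, 58.7% and 48.8%, a mean of 45.1% ± 11.4. The ranges of eIF2A and eIF2alpha overlap. Within the same list eIF2A was the stronger in replicates 1 to 3, and eIF2alpha in replicate 4, at 48.2% against 48.8%.

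eIF2beta, the remaining eIF2 subunit, had no thresholded summit, and its candidates scored 513, 63, 18 and 81 in replicates 1 to 4. The exchange factor was unevenly marked. eIF2Bdelta, another regulatory subunit, was in the own lists of replicates 2 and 4 alone, at 72.8% and 80.6%, and had no conservative summit. eIF2Bgamma, part of the catalytic core, was in the conservative list 15 bp upstream of its TSS but in no own list, where its candidates scored 66, 788, 37 and 657. eIF2D was likewise in the conservative list, 244 bp upstream, with own candidates at 798, 58, 43 and 66. eIF2Bbeta and the catalytic eIF2Bepsilon were in neither the conservative list nor an own list, and the nearest conservative summits lay 731 and 4814 bp from their TSSs. Subunits of a complex that act together thus differed from one another in the strength and the replicate support of their promoter summits. The eIF2gamma summit, however, lay 33 bp from the TSS of Set and 61 bp from its own. That of eIF2Balpha lay 22 bp from the TSS of Vps13B and 68 bp from its own. Their ranks thus cannot be assigned to the subunit genes alone.

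eIF3 had the widest span of strengths. Of its 16 genes, 9 had a conservative summit (56.25%), against 32.7% of all genes. In the own lists 6, 8, 6 and 8 had one, against 20.5% to 27.1% of all genes. eIF3c, a core subunit that in yeast contacts eIF1 and eIF5 (2R, 17665678 to 17669275), ranked at 0.970%, 1.19%, 1.82% and 1.32%, a mean of 1.33% ± 0.362 (SD, n = 4). eIF3f1 (3R, 4712882 to 4714182), a subunit with an MPN domain, ranked at 4.07%, 3.99%, 4.44% and 5.06%, a mean of 4.39% ± 0.489. eIF3c was the strongest eIF promoter in all 4 own thresholded lists and eIF3f1 the next in all 4. The values of the pair do not overlap each other or those of any other eIF gene.

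eIF3a, the largest scaffold subunit (3R, 4429798 to 4433895), ranked at 15.8%, 12.1%, 16.1% and 26.01%, a mean of 17.5% ± 5.96. eIF3l (3L, 12143446 to 12146097) ranked at 27.7%, 24.4%, 39.8% and 41.0%, a mean of 33.2% ± 8.37. Their ranges overlap only where replicate 4 of eIF3a exceeds replicate 2 of eIF3l, and eIF3a was the stronger within each replicate. eIF3b, a scaffold subunit with an RNA-recognition motif (2R, 17536213 to 17539142), ranked at 76.6% in replicate 1 and at 39.9%, 48.8% and 45.5% in replicates 2 to 4, a mean of 52.7% ± 16.4. eIF3j, a loosely attached subunit (2R, 9968929 to 9970897), ranked at 55.6%, 55.0%, 71.6% and 74.2%, a mean of 64.1% ± 10.2. The order was eIF3a, eIF3l, eIF3b, eIF3j in replicates 2 to 4, and in replicate 1 eIF3b and eIF3j changed places.

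The other eIF3 genes had less support. eIF3h was in the own lists of replicates 2 and 4, at 66.2% and 69.0%. eIF3d1, whose human relative can contact the cap, was in that of replicate 2 alone, at 87.4%. eIF3e was in that of replicate 4 alone, at 78.3%. All 3 had a conservative summit. eIF3g1, eIF3i, eIF3k and eIF3m, and the copies eIF3d2, eIF3f2 and eIF3g2, had a summit in neither kind of list. Among these the best candidate belonged to eIF3m, with scores of 316, 760, 288 and 21, all under the threshold of 830.

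The eIF4 group has 13 genes, and the same 5 (38.46%) had a summit in the conservative list and in each own list. Over all genes the share was 32.7% in the conservative list and 20.5% to 27.1% in the own lists. eIF4E6, an additional copy of the cap-binding protein (3R, 29026439 to 29027174), was the strongest of the 5, at 7.93%, 10.4%, 14.5% and 7.39%, a mean of 10.1% ± 3.23 (SD, n = 4). eIF4E1, the main cap-binding protein (3L, 9399618 to 9402460), ranked lower in every replicate, at 43.6%, 45.0%, 87.2% and 61.9%, a mean of 59.4% ± 20.3. The eIF4E6 summit is the stronger of the pair, but it lies 7 bp from the TSS of CG1951 and cannot be assigned to eIF4E6 alone.

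eIF4G1, the scaffold that joins the cap-binding protein to eIF4A and eIF3 (chromosome 4, 915297 to 930715), ranked at 51.3%, 54.7%, 73.0% and 61.8%, a mean of 60.2% ± 9.58. Its copy eIF4G2, known for a role in spermatogenesis (3R, 23808285 to 23819237), ranked at 33.9%, 49.8%, 65.4% and 50.03%, a mean of 49.8% ± 12.9. eIF4H1, a helper of the helicase (X, 16448665 to 16454972), ranked at 33.1%, 50.5%, 62.5% and 42.4%, a mean of 47.1% ± 12.5. The ranges of these 3 genes overlap, although eIF4G2 was stronger than eIF4G1 within each of the 4 replicates. eIF4B, a cofactor of the helicase, lies 3322191 bp from the nearest conservative summit and had a single candidate, in replicate 3, with a score of 69.

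eIF4A, the RNA helicase that unwinds mRNA leaders, stood apart. It was in none of the 11 thresholded lists, 7 of the series and 4 of the replicates. Yet its promoter (2L, 5981369 to 5981829 in replicate 1) had a candidate with the top score of 1000 in the ranked list of all 4 replicates, with summits at -132, -93, -103 and -95 bp from the TSS. These candidates were numbers 271, 274, 156 and 274 among 43859, 39011, 44390 and 39755, that is 0.618%, 0.702%, 0.351% and 0.689% from the top. On the same ranked lists eIF4E6 was at 0.673%, 1.005%, 0.849% and 0.553%, so eIF4A was the stronger in replicates 1 to 3. Counted only among the candidates that reach 830, the rank of eIF4A was 7.49% ± 1.31 (SD, n = 4).

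Its score was thus above the threshold in every replicate. In all, 107, 105, 55 and 88 ranked candidates scored at least 830 without being in the thresholded list of the same replicate, 2.70% ± 0.382 of such candidates, while every thresholded peak was in the ranked list. Per the description files deposited with the samples, the thresholded lists derive from 1 more file than the ranked ones, and what that file holds is not stated there. Its part in the absence of eIF4A was not tested. If candidates of at least 830 are counted instead, an alternative added after seeing the data, eIF4A is the only eIF gene gained, and the counts become 20, 23, 19 and 23.

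**Figure D2:**
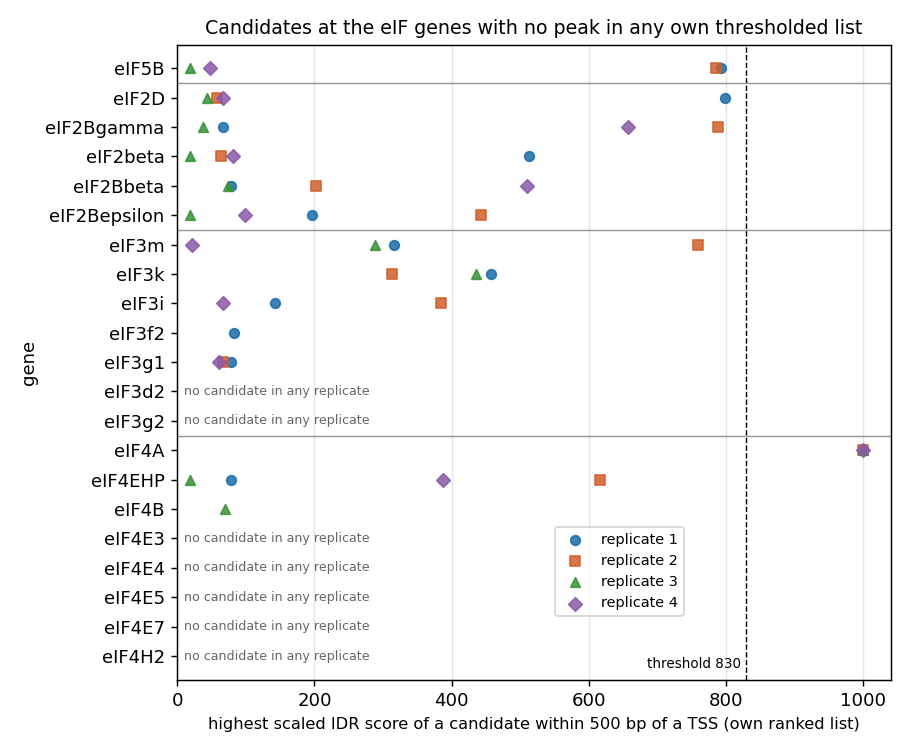
Highest scaled IDR score of a ranked candidate within 500 bp of a TSS, for the 21 eIF genes with no peak in any own thresholded list. Symbols are replicates 1 to 4 and the dashed line is the threshold of 830. All 4 points of eIF4A lie at 1000, all other points lie under 830, and 7 genes have no candidate in any replicate.

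The 5 genes outside these groups had the highest share, with summits at 4 in the conservative list, against 32.7% of all genes. In the own lists 4, 4, 3 and 4 had one, against 26.2%, 27.1%, 20.5% and 22.6% of all genes. With so few genes, 1 call moves the share from 80.0% to 60.0%. eIF1A, which promotes scanning together with eIF1 (3R, 18274665 to 18283005), ranked at 5.82%, 12.02%, 22.5% and 17.0%, a mean of 14.3% ± 7.11 (SD, n = 4). eIF1, which guards the fidelity of start codon choice (3L, 3223341 to 3224650), ranked at 21.7%, 30.2%, 26.4% and 27.6%, a mean of 26.5% ± 3.57. eIF6 (2R, 23849246 to 23850301) ranked at 32.3%, 32.1%, 45.3% and 37.2%, a mean of 36.7% ± 6.15. Within each replicate the order was eIF1A, eIF1, eIF6. eIF5B, the GTPase of subunit joining, had a conservative summit but none in an own list, where its candidates scored 793, 786, 18 and 47. eIF5, the GTPase activator of eIF2, was the reverse case: its own summits lay at -435, -459 and -367 bp in replicates 1, 2 and 4, and the nearest conservative summit was 507 bp away, just outside the window. The distance limit thus decides how eIF5 is counted.

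**Figure D3:**
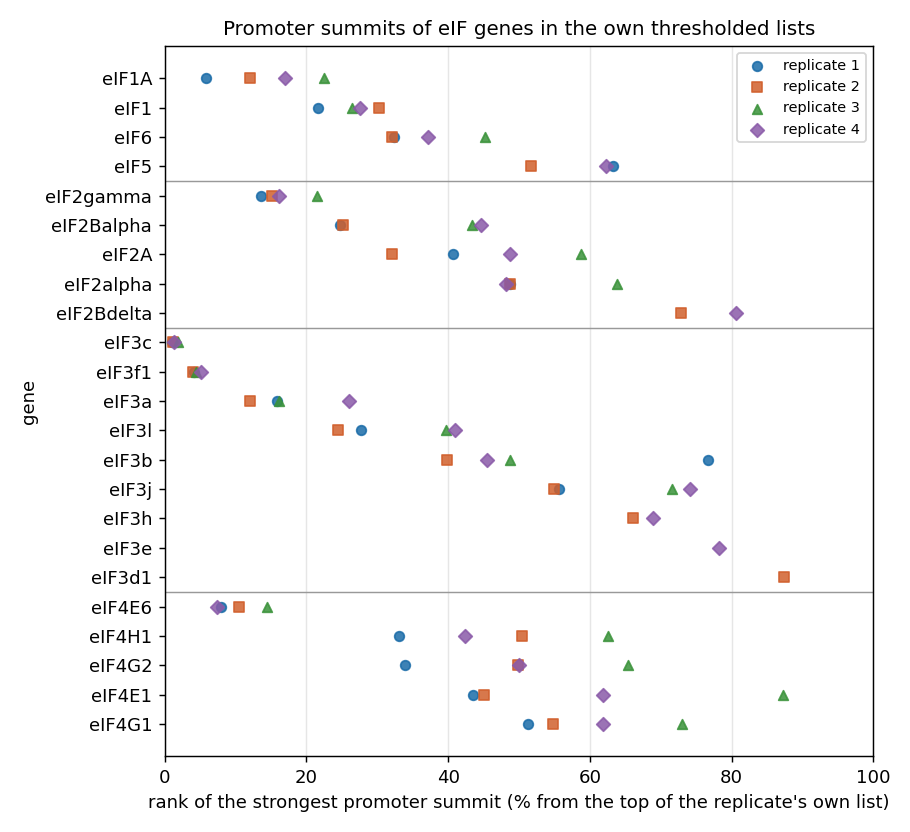
Rank of the strongest promoter summit of the 23 eIF genes with a peak in at least 1 own thresholded list, in percent from the top of that replicate's list (left is strong). Symbols are replicates 1 to 4, and lines part eIF1, eIF5 and eIF6, eIF2, eIF3 and eIF4. eIF3c and eIF3f1 lie at the left edge in every replicate, at 1.33% and 4.39% on average, while eIF4E1 ranges from 43.6% to 87.2%.

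Whether the eIF2, eIF3 and eIF4 groups differ in their share of genes with a summit could not be decided by the test. With 4 replicates it could not pass its threshold, whatever the shares, so only the values are described. In the own lists the share was 45.0% ± 5.77 for eIF2, 43.8% ± 7.22 for eIF3 and 38.5% in every replicate for eIF4 (SD, n = 4). The difference of eIF2 minus eIF3 was 1.25 ± 1.44 percentage points, and it was above 0 in 2 replicates and 0 in the others. That of eIF3 minus eIF4 was 5.29 ± 7.22 points and changed sign between replicates. That of eIF2 minus eIF4 was 6.538 ± 5.77 points and above 0 in 4 of 4. Over these 3 pairs the adjusted p from the exact sign-flip permutation test were 0.5, 0.5 and 0.375 (Benjamini-Hochberg), where the smallest raw p possible was 0.13. The eIF4 group turned from the lowest to the highest of the 3 when eIF4A was counted by its score, with a difference of eIF2 minus eIF4 of -1.15 points and of eIF3 minus eIF4 of -2.40 points. With eIF2 held to its 3 subunits, of which eIF2alpha and eIF2gamma had a summit in every list, eIF2 minus eIF3 was 22.9 points and eIF2 minus eIF4 28.2 points.

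Additional copies of duplicated genes had a summit less often than the other eIF genes. Among the 44 genes, 11 are additional copies: eIF3d2, eIF3f2, eIF3g2, eIF4E3, eIF4E4, eIF4E5, eIF4E6, eIF4E7, eIF4EHP, eIF4G2 and eIF4H2. Only eIF4E6 and eIF4G2 had a summit, in the conservative list and in each own list, so 2 of 11 (18.2%), against 32.7% of all protein-coding genes in the conservative list and 20.5% to 27.1% in the own lists. Of the other 33 eIF genes, 22 had a conservative summit (66.67%), and 17, 20, 16 and 20 had one in the own lists, a share of 55.3% ± 6.25 (SD, n = 4). In each of these lists the additional copies lay below all genes by less than the other eIF genes lay above them. The difference between the sets thus rests more on the high share of the other eIF genes. The share of additional copies minus that of the other eIF genes was -37.1 ± 6.25 percentage points and below 0 in 4 of 4 replicates, with differences from -42.4 to -30.3. The exact two-sided sign-flip permutation test gave p = 0.13, again the smallest possible. The difference was -23.5 points when each list was cut to the stronger 50% of its peaks.

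For the 9 copies without a summit the nearest conservative summit lay between 10444 and 80097 bp from a TSS. No ranked candidate was seen in any replicate at 7 of them: eIF3d2, eIF3g2, eIF4E3, eIF4E4, eIF4E5, eIF4E7 and eIF4H2. eIF3f2 had a candidate in replicate 1 alone, with a score of 82. eIF4EHP, a cap-binding repressor of translation, had candidates in all 4 replicates, scored 78, 616, 18 and 388. By contrast, every eIF gene that is not an additional copy had a candidate in at least 1 ranked list. The share of all genes with a candidate in at least 1 of the 4 lists was not counted. In single ranked lists 29.55% ± 4.55 of additional copies had one (SD, n = 4), against 60.6% to 62.9% of all genes.

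Of the 6 lead copies, eIF3d1, eIF3f1, eIF4E1, eIF4G1 and eIF4H1 had a conservative summit and eIF3g1 did not. Likeness of the proteins did not go with a summit at both copies. The eIF3g pair is the closest, with 72.4% identical residues over 264 aligned, and neither gene had a summit. eIF3d2 is 67.7% identical to eIF3d1, and only eIF3d1 had one. eIF4G2, at 30.04% identity to eIF4G1 over 1708 residues, and eIF4E6, at 51.5% identity to eIF4E1 over 169, are the copies with a summit. Both share that summit with another gene, CG1951 at eIF4E6 and CG33111 at eIF4G2. The remaining copies ranged from 27.4% identity for eIF4EHP to 62.5% for eIF4E4.

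Many of these summits lie between genes. The strongest conservative summit of 11 of the 24 eIF genes (45.83%) was also within 500 bp of a TSS of another protein-coding gene, against 57.4% of all genes with a summit. Sharing a promoter was thus not more frequent at eIF genes than in the list as a whole. In 10 of the 11 such a gene runs the opposite way, and the same share over all genes with a shared summit was not counted. The eIF4E6 summit lay 7 bp from the TSS of CG1951 and 55 bp from that of eIF4E6. The strongest eIF3b summit lay 27 bp from the TSS of Patronin, which encodes a protein of microtubule minus ends, and at -320 bp from that of eIF3b. In these cases the strongest summit cannot be assigned to either gene. At eIF3b a weaker conservative summit also lay 121 bp from a TSS of the gene.

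eIF2gamma shares an identical TSS with Su(var)3-9, a histone H3 lysine methyltransferase gene, and lies head to head with Set. Its summit was 61 bp from the shared TSS and 33 bp from that of Set. eIF4G2 shares 2 identical TSSs with CG33111 on the same strand. The other shared summits joined eIF1 with RpL28, a ribosomal protein gene, eIF1A with Vps39, eIF2Balpha with Vps13B, eIF3a with CG1074, eIF3h with senju, eIF3l with Nrx-IV and eIF4H1 with CG34015. The distance from the summit to the TSS of the other gene ran from 22 bp at Vps13B to 340 bp at Nrx-IV. eIF2alpha and eIF4H1 are neighbours on X, with TSSs 1672 bp apart, and had a summit each. Of the strongest pair, neither eIF3c nor eIF3f1 shared its summit with another protein-coding gene.

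Summits sat close to the TSS. Over the 24 genes the strongest conservative summit lay at a median of -50.5 bp, and over all genes with a summit at -73.0 bp, where a negative value is upstream. It was upstream at 18 of 24 eIF genes (75.0%) and at 78.66% of all genes, and within 100 bp at 17 of 24 (70.83%) and at 51.83% of all. Of these strongest summits the farthest upstream was at eIF3b, at -320 bp, and the farthest downstream at eIF3h, at 171 bp. In the own lists the position of the 18 genes seen in all 4 varied over the replicates by a median range of 67 bp, from 22 to 156 bp. eIF6 was the tightest, at 14, 7, 3 and 25 bp downstream in replicates 1 to 4. eIF4G2 was the loosest, at -81, -10, 75 and -76 bp. eIF3f1 held a place at the TSS, at -39, -14, -4 and -12 bp, and eIF4H1 one farther upstream, at -157, -129, -155 and -163 bp. The replicates thus placed most of these summits within the length of a single promoter.

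**Figure D4:**
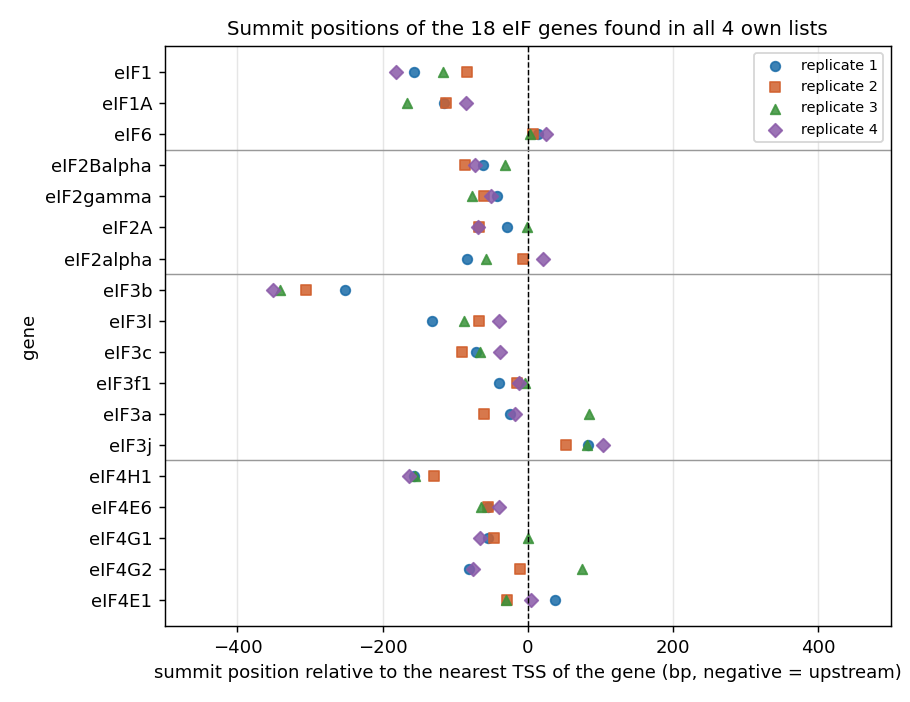
Position of the strongest promoter summit relative to the nearest TSS of the gene, in bp (negative is upstream), for the 18 eIF genes with a peak in all 4 own lists. Symbols are replicates 1 to 4. Most points lie just upstream of the TSS, eIF3b lies from -351 to -252 bp, and eIF3j is downstream in every replicate, at 53 to 104 bp.

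The sequences under the summits were set beside those of all genes. Within 50 bp of the strongest conservative summit TATCGATA was found at 7 of 24 eIF genes (29.17%) and at 16.32% of all genes with a summit. These 7 were eIF2A, eIF2alpha, eIF2gamma, eIF3a, eIF3f1, eIF4E6 and eIF6. All are among the 18 seen in every own list, as are most of the 24 genes. The matching share over all genes was not counted. In the window from 250 bases before to 50 bases after the most upstream TSS, TATCGATA was in 12 of 44 eIF promoters and in 9.357% of all promoters. It was in 9 of the 24 eIF promoters with a conservative summit, beside 24.42% of all promoters with one. Of the 20 eIF promoters without a summit 3 held it, beside 2.042% of all promoters without one. eIF4A, eIF4B and eIF2Bbeta are the 3 without. eIF2A is not among the 12, because its summit lies at a second TSS farther downstream, at -59 bp from it.

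For the other words the eIF share was below that of all summits within 50 bp, apart from GGTCACAC, and none of these differences was tested. CGATAT, which can overlap TATCGATA, was within 50 bp at 4 of 24 eIF summits, those of eIF2alpha, eIF4E6, eIF4G2 and eIF4H1 (16.67%), and at 20.15% of all. Within 25 bp the order of CGATAT was the other way, with 16.67% of eIF summits and 11.87% of all. CAGCTG was at 2 of 24, eIF2Bgamma and eIF3e (8.333%), and at 9.66% of all. TATAAA was at 2 of 24, eIF4E6 and eIF4H1 (8.333%), and at 17.04%. GGTCACAC was at 1 of 24, eIF2A (4.167%), and at 3.571%, and GAGAGAG was at 0 of 24 and at 1.95%. TAATTA was at 1 of 24, eIF1 (4.167%), and at 9.091%, and within 25 bp at 4.167% of eIF summits and 4.206% of all. In promoters TAATTA was in 13 of 44 eIF genes and in 20.41% of all. It was in 5 of the 24 eIF promoters with a summit, beside 22.74% of all promoters with one. Of the 20 without a summit 8 held it, beside 19.28% of all promoters without one. A match is a run of letters and not a site shown to be bound.

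Other genes of translation were counted in the same way. Of 13 partners and regulators of initiation, 7 had a conservative summit and 6 had one in all 4 own lists. Paip2, a repressor that binds the poly(A)-binding protein, ranked at 1.97%, 0.914%, 1.59% and 1.56%, a mean of 1.51% ± 0.437 (SD, n = 4), which overlaps the values of eIF3c. NAT1, a relative of eIF4G that lacks the cap-binding contact, ranked at 12.9% ± 4.32, and mxt, an eIF4E-binding scaffold, at 15.02% ± 3.32. MCTS1 and DENR, which act together in reinitiation, ranked at 21.5% ± 16.0 and 51.2% ± 10.03. The helicase gene bel ranked at 37.0% ± 9.09, and pAbp, the poly(A)-binding protein, had a summit in 3 own lists. Thor, which encodes the eIF4E-binding repressor, kra, cup, 4E-T, rin and Pdcd4 had no summit in the conservative list or an own list.

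Of 6 kinases and stress genes, 4 had a conservative summit. PPP1R15, which directs a phosphatase to eIF2alpha, ranked at 23.6% ± 5.20 and the eIF2alpha kinase Gcn2 at 42.0% ± 9.23 (SD, n = 4). The other eIF2alpha kinase, PEK, had a summit in the own list of replicate 1 alone, crc, the fly ATF4, in 3 own lists, S6k in 1 and Lk6 in none. Of 9 elongation and release genes, 6 had a conservative summit. The release factor gene eRF1 ranked at 15.5% ± 3.45, eEF1gamma at 17.4% ± 6.25 and eEF2 at 17.9% ± 3.70, and eRF3 had a summit in 3 own lists. eEF1alpha2 and eEF1delta were in the conservative list alone, and eEF1alpha1, eEF1beta and eEF5 had no summit. These lists hold 53.85%, 66.67% and 66.67% of genes with a conservative summit, beside 54.55% of eIF genes and 32.7% of all genes. The share of eIF genes lies among those of the other translation lists, and the difference was not tested.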

How the data were processed

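ChIP-seq peak lists of 4 biological replicates, 1 group, were used; nothing in the files says more about how the embryos were collected, so p-values measure only the spread between these samples. Peaks were called by the authors on the dm6 build, per the labels, for each sample and for all samples together. The sources used here do not name an aligner, a peak caller or a software version. The signal of a peak is the authors' deposited peak height, with no stated normalization, and was ranked only within a list. As score, the authors deposited a scaled IDR of at most 1000. The summit is the authors' deposited peak point, at the start plus the offset in the file. The 7 series-level ranked lists were not used, nor were their 14 columns of values per unnamed replicate.

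Genes and TSSs came from Ensembl release 115 (BDGP6.54), and sequences from the RefSeq release 6 genome; every peak ended within its arm. Groups follow the symbols. A copy shares its stem with another eIF gene; the lowest number is the lead. The named genes are all 44 eIF genes, with values in each replicate for those with a conservative summit or copies with any peak. Shares were compared within a list by the exact sign-flip permutation test over replicates. Protein identity was planned on RefSeq proteins and computed instead from the longest annotated coding sequence, translated from the genome, by global alignment (BLOSUM62, gap opening 11, extension 1, end gaps 0.5). In the planned pathway lists, Gigyf and Tor were not matched by these symbols and are not counted. The members and lists were chosen with earlier results of these data known. Alternatives changed the distance (250 and 1000 bp), the TSS, the overlap, the peak set, the word window and the replicates used. As a check of the code alone, summits were planted within 500 bp of a TSS, and 200 of 200 such genes were recovered among 13968. Software was Biopython 1.88, SciPy 1.17.1, matplotlib 3.10.9, pandas 2.3.3 and NumPy 2.4.6 under Python 3.11.15.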

Additional observations from a re-analysis of the deposited data

Results flagged for a closer look

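Of 48 groups of 4 replicates that were examined, 3 had a replicate far from the others by Dixon's test at the 95% level. For continuous values chance alone flags about 1 in 20 groups. That rate does not apply to shares of few genes. Where the other replicates are identical, as in both shares below, 1 gene changing its call is enough for a flag. The rank of eIF2alpha was 63.9% from the top in replicate 3, against 48.7%, 48.8% and 48.2% in the other replicates. The share of eIF1, eIF5 and eIF6 genes with a summit was 60.0% in replicate 3, against 80.0% in each other replicate, because eIF5 was missing there. The share of lead copies with a summit was 83.3% in replicate 2, against 66.7% in each other replicate, because eIF3d1 was found there alone. Replicate 3 has the shortest own list, with 2523 peaks, and the part of list length in the first pair of values was not tested.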

How the results depend on the processing

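The eIF share stayed above that of other genes under every alternative run. The share of additional copies likewise stayed below that of the other eIF genes. No test could pass the threshold, so this says nothing of significance. The number of eIF genes in the conservative list stayed between 17 and 26 over 14 settings, lowest in the series-level lists of 4009, 4347 and 4318 peaks and highest at 1000 bp and when the peak interval was used. The excess over all genes was 12.4, 10.4 and 10.9 percentage points in those 3 lists and 21.9 in the conservative list. With candidates of at least 830 counted, chosen after seeing the data, eIF2 minus eIF4 was -1.15 and eIF3 minus eIF4 -2.40 percentage points, because eIF4A was added. At 250 bp eIF2 minus eIF3 was 5.94 and eIF3 minus eIF4 0.601, and among the stronger 50% of peaks eIF2 minus eIF3 was 5.31, eIF3 minus eIF4 10.46 and eIF2 minus eIF4 15.8. With each replicate left out in turn, the eIF excess ranged from 20.2 to 23.7 points. The share of additional copies minus that of the other eIF genes ranged from -39.4 to -35.4 points. In the same runs eIF2 minus eIF3 ranged from 0.833 to 1.67 and eIF2 minus eIF4 from 4.87 to 8.21. The difference of eIF3 minus eIF4 ranged from 3.21 to 7.37. CAGCTG was at 0.0% of eIF summits within 25 bp, beside 4.775% of all gene summits, and the difference was not tested. No paired analysis was possible because the 4 samples form 1 group, with no second condition to pair; shares of gene sets were compared within each replicate's list. The lists give no depth, so a missing summit means only that the authors' thresholded list holds none there. It does not show an absence of binding, and at eIF4A the score itself was above the threshold.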
